A study of Homo sapiens with 19 samples.

Results

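The comparison was between 2 groups of human liver organoids that the study did not expose to OA. Both groups were grown on an orbital shaker (OS) and collected on day 25: untreated organoids, and organoids labelled as the control for OA. Every organoid came from W01, an established human pluripotent stem cell line with a wild-type genotype, so each group describes 1 line. The members were chosen by sample title, and they were 4 libraries, 2 in each group, of the 19 in the series. They held 23754 cells after filtering, of 85951 cells in the 14 shaker libraries.

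Shaker organoids were grown for 20 days, and the treated and control groups then had 5 days of treatment. The treatment label of the untreated group is "None", and that of the other group is "Control-OA". The labels do not say what the OA control received, and they do not spell out OA, so the comparison measures the control condition as a whole. The OA group of the same series received 500 µM OA. Each library was made from dissociated organoids with the 10x Genomics single cell 3′ v3 protocol. This protocol captures messenger RNA by its poly(A) tail and counts unique molecular identifiers (UMIs), the tags that mark single captured molecules.

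As background, a treatment control is a culture handled like the treated one but without the agent. Liver organoids from pluripotent stem cells hold fetal-type hepatocyte-like cells, which make alpha-fetoprotein, apolipoproteins and clotting factors. They also hold stromal cells that make collagen, and often epithelium with bile duct or gut features.

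The libraries differed in depth and in cell number before any gene was compared. Cells were kept from 500 genes upwards, if mitochondrial transcripts made up 20% of their UMIs or less. Their number was 9479 and 5724 in untreated replicates 1 and 2, and 5456 and 3095 in OA control replicates 1 and 2. In the same order, the libraries held 56936125, 31340559, 57230502 and 53046444 UMIs in all, and the median kept cell had 4250, 2288, 5472.5 and 14124 UMIs. Both OA control libraries were therefore deeper per cell than both untreated libraries, and the second OA control library stood apart. The exact permutation test over 2 against 2 libraries cannot give a two-sided p under 0.33, which it gave for this difference. The mitochondrial share of UMIs was 5.21% and 8.88% in untreated and 8.34% and 7.28% in OA control, so the groups overlapped. Any pair of the 4 libraries shared 3 to 15 cell barcodes. The labels do not say that replicates came from separate cultures, so p-values measure the spread between libraries, which may be technical. In the test over all cells, that spread was estimated over the 14 shaker libraries and not over these 4 alone. The depth difference lies between the groups, and its part in the results was not tested. Thinning, given below, evens the weight of cells in a sum but keeps the expected make-up of each, so it cannot decide this.

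Markers of the labelled tissue were present in all 4 libraries. Levels are given as CPM, the UMIs of a gene scaled to a common total. For single genes over all cells, and in the tests by cluster, the totals were first adjusted by edgeR's TMM factors. Over all cells these factors were 0.895 to 1.10 in the 4 libraries and 0.740 and 0.758 in the OA libraries. Marker sums, and levels in single clusters and in hepatocyte-like cells, use plain totals. The 13 hepatocyte markers summed to 11745 and 11590.1 CPM in untreated and to 12574 and 9058 CPM in OA control. SERPINA1, the alpha-1 antitrypsin gene, took a large part of these sums and was higher in both OA control libraries, as given below. AFP, another of the 13, was lower in both, so the overlap of the sums does not describe each marker. The 12 mesenchymal markers summed to 9345, 3943, 4555 and 7436 CPM in the same library order. Albumin, the main protein of adult liver plasma output, was low: ALB stood at 32.7, 20.2, 24.6 and 7.26 CPM. Markers of endothelium summed to 70.6 to 92.9 CPM, those of macrophages and leukocytes to 14.6 to 25.1 CPM and those of pluripotent cells to 10.4 to 16.8 CPM. No marker of these lists was at 0 in all 4 libraries.

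The alpha-fetoprotein gene AFP fell in the OA control, as did CHGA, MUC13, DPP4 and the linker histone gene HIST1H1E, while the phospholipase gene PLA2G2A rose. UMIs were summed per library over kept cells and tested with edgeR's quasi-likelihood test, fitted on the 14 shaker libraries so that all 7 shaker groups shared 1 estimate of the spread. Of 19366 genes tested, 111 passed a Benjamini-Hochberg adjusted p of 0.05, which is 0.573% of them. The OA control was higher for 16 of these genes (0.0826%) and lower for 95 (0.491%). The median log2 fold change of all genes tested was 0.03, and 2822 genes (14.6%) had an unadjusted p under 0.05. Both OA control libraries stood on the same side of both untreated libraries for 45.9% of all genes, 24.6% higher and 21.4% lower, so 2 libraries that separate from 2 others are common here. With the 4 libraries fitted alone no gene passed, although 2477 had an unadjusted p under 0.05, and with DESeq2 on the 14 libraries 702 passed. No gene passed without OA control replicate 1 or without OA control replicate 2 either, 20 passed without untreated replicate 1, and 164 passed without untreated replicate 2.

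**Figure D1:**
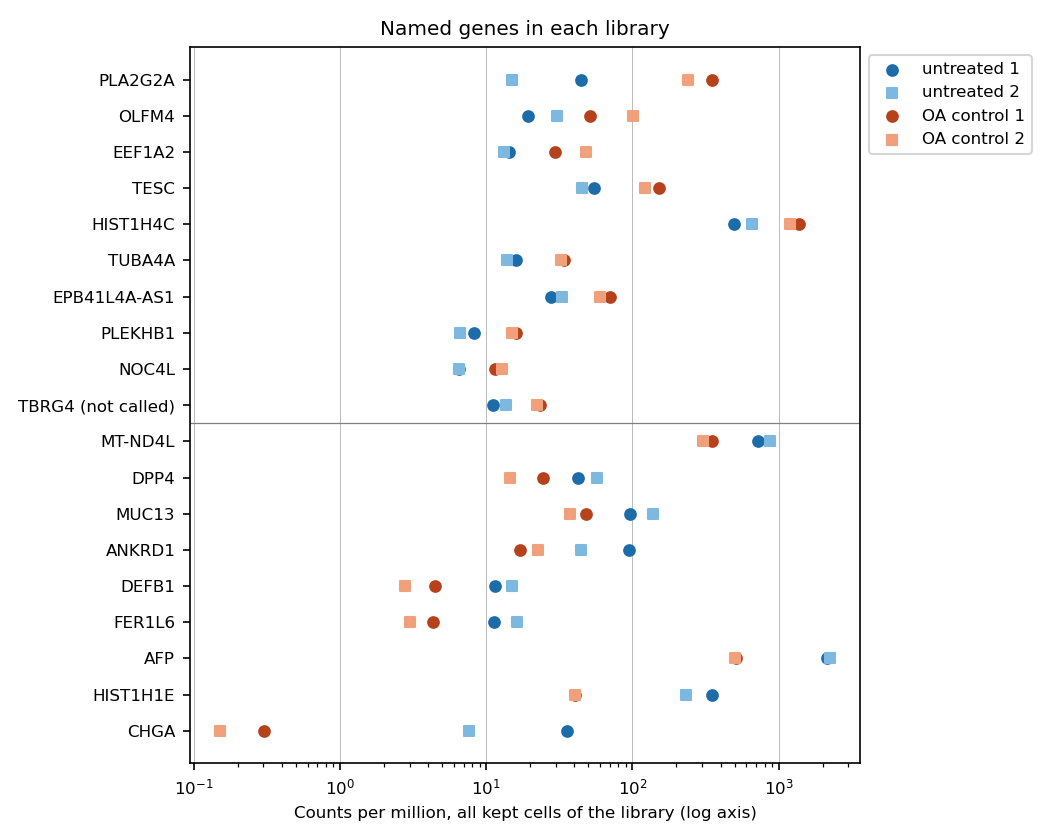
CPM (horizontal log axis) of 19 genes named by rule, each point 1 library, with genes higher in the OA control above the line and genes lower below it. For every gene both OA control libraries lie on one side of both untreated libraries, and TBRG4 did not pass the test.

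AFP encodes alpha-fetoprotein, the main plasma protein of the fetal liver, and lies on chromosome 4 at 73431138 to 73456174 (GRCh38, GENCODE release 44). AFP stood at 2142 and 2238.0 CPM in the untreated libraries and at 511 and 504 CPM in the OA control libraries. The replicates of each group lay close together and far from the other group, with means of 2189.9 ± 68.0 and 507 ± 5.23 CPM (SD, n = 2). AFP fell by 2.11 ± 0.25 (SE) on the log2 scale, a 4.32-fold lower level (edgeR adjusted p = 0.011). In sums over a library, fewer cells of a type and less RNA per cell cannot be told apart. Within the clusters described below, both OA control libraries were under both untreated libraries for AFP in 9 of 10 clusters. Over all genes in each of these 10 clusters, 24.9% were lower and 13.3% higher in both OA control libraries. Among genes with a mean of at least 10 CPM in a cluster, 28.1% to 40.3% were lower and 13.6% to 19.4% higher. The clusters come from the same 4 libraries and are not replicates of each other. Genes named for their change were picked on the same UMIs summed over all cells, unlike the genes of this background. Their cluster counts, here and below, are therefore no separate support. Droplets also hold free RNA, whose part in the low AFP levels outside hepatocyte-like cells was not tested.

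CHGA encodes chromogranin A, a protein of the secretory granules of endocrine cells, and lies on chromosome 14 at 92923150 to 92935285. It stood at 35.7 and 7.59 CPM in untreated and at 0.30 and 0.15 CPM in OA control, and fell by 6.57 ± 1.06 (SE) on the log2 scale (edgeR adjusted p = 0.029). The log2 change was -5.05 without untreated replicate 1 (edgeR adjusted p = 0.065) and -7.29 without untreated replicate 2. Few cells carried this gene: its 2214 UMIs in untreated replicate 1 came from 102 cells, and 83.6% of them from the 10 richest cells. All 223 UMIs of untreated replicate 2 came from 6 cells, and the OA control libraries held 15 and 8 UMIs. CHGA was lower in both OA control libraries in 2 of 10 clusters, and its groups overlapped in 8. The 9 endocrine markers, CHGA among them, summed to 233 and 66.2 CPM in untreated and to 80.4 and 144 CPM in OA control, so the list as a whole overlapped between the groups. RFX6, a transcription factor of the endocrine and gut lineage that was chosen after its values were seen, also fell, from 2.47 and 2.21 CPM to 0.32 and 0.25 CPM (edgeR adjusted p = 0.011).

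MUC13, DPP4, DEFB1 and FER1L6 were also among the genes that fell. MUC13, a membrane mucin of gut epithelium, stood at 95.9 and 138 CPM in untreated and at 48.4 and 37.1 CPM in OA control (log2 change -1.45 ± 0.27 SE, edgeR adjusted p = 0.041). DPP4, a peptidase of the brush border, stood at 42.5 and 57.2 CPM and at 24.6 and 14.5 CPM (log2 change -1.35 ± 0.26 SE, edgeR adjusted p = 0.047). DEFB1, an antimicrobial beta-defensin, stood at 11.5 and 15.1 CPM against 4.44 and 2.78 CPM. FER1L6, a ferlin family gene, stood at 11.2 and 16.2 CPM against 4.34 and 3.02 CPM. Both OA control libraries were lower in 7 of 10 clusters for MUC13, 9 for DPP4, 3 for DEFB1 and 5 for FER1L6. Over all genes in these clusters the share was 24.9%. The 11 gut epithelial markers summed to 1479.5 and 3054 CPM in untreated and to 2077 and 1183 CPM in OA control, so their sum overlapped. OTC, an enzyme of the urea cycle, and CYP3A5, a drug-metabolizing cytochrome, were chosen after their values were seen. OTC fell from 0.74 and 1.94 CPM to 0.28 and 0.11 CPM, and CYP3A5 from 13.6 and 21.6 CPM to 7.56 and 6.94 CPM.

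ANKRD1 was also among the genes that fell. ANKRD1, a target of the Hippo pathway effector YAP, stood at 95.2 and 44.6 CPM in untreated and at 17.0 and 22.6 CPM in OA control. It was lower in both OA control libraries in 7 of 10 clusters. Its untreated replicates differed from each other by more than the OA control replicates did, and its log2 change of -1.82 became -1.17 without untreated replicate 1 (edgeR adjusted p = 0.11).

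Among the genes that rose, PLA2G2A had the largest change of those with at least 10 CPM. It encodes a secreted phospholipase A2 that is also an antibacterial protein of the gut, and lies on chromosome 1 at 19975431 to 19980416. PLA2G2A stood at 44.4 and 15 CPM in untreated and at 349 and 239 CPM in OA control, with means of 29.7 ± 20.8 and 294 ± 78.4 CPM (SD, n = 2). It rose by 3.30 ± 0.46 (SE) on the log2 scale, or 9.86-fold (edgeR adjusted p = 0.026). The log2 change was 4.30 without untreated replicate 1 and 2.73 without untreated replicate 2. It was 3.00 and 3.55 without OA control replicates 1 and 2, where the edgeR adjusted p was 0.14 and 0.13. The gene was higher in both OA control libraries in 8 of 10 clusters, against 13.3% of all genes in these clusters. The part of free RNA in these levels was not tested. OLFM4, a marker of intestinal stem cells, stood at 19.2 and 30.3 CPM against 51.6 and 101 CPM (log2 change 1.63 ± 0.32 SE, edgeR adjusted p = 0.047). Its log2 change was 1.07 without OA control replicate 2 (edgeR adjusted p = 0.41) and 2.04 without OA control replicate 1 (0.13). Without untreated replicates 1 and 2 it was 1.34 (edgeR adjusted p = 0.18) and 1.99 (0.041). The 10 richest cells of each library held 20.7% and 46.2% of its UMIs in untreated and 25% and 39.5% in OA control. OLFM4 was higher in both OA control libraries in 2 of 10 clusters, and its groups overlapped in 8.

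PLA2G2A, OLFM4, EEF1A2 and TESC were among the leading genes by fold of cluster 1, an unnamed cluster of 765 cells. It held 2.36% and 0.52% of the untreated cells and 4.01% and 9.43% of the OA control cells (exact permutation p = 0.33). The matching cluster was larger and its groups overlapped when clustered without the called genes, at 9.87% and 4.05% against 7.13% and 14.1%. They also overlapped at leiden resolution 1.0, at 8.70% and 3.21% against 7.07% and 13.4%. With doublets removed no separate cluster of this kind was found. With 30 cells in untreated replicate 2 it is not among the 10 clusters compared, which have at least 50 in each library. The part of cluster 1 in the rise of these genes over all cells was not tested. Cluster 2, also unnamed, had PLA2G2A and OLFM4 among its leading genes by fold as well. All 44 of its cells came from OA control replicate 1, and its part was not tested either.

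TESC, a calcium-binding protein, stood at 54.6 and 45.4 CPM in untreated and at 152 and 122 CPM in OA control, and it was higher in both OA control libraries in 7 of 10 clusters. EEF1A2, a translation elongation factor of muscle and neurons, stood at 14.3 and 13.1 CPM against 29.5 and 48.3 CPM. TUBA4A, an alpha tubulin, stood at 16 and 13.9 CPM against 34.1 and 32.6 CPM. EEF1A2 and TUBA4A have closely related copies, and how reads were split between copies is not given in the sources used here. EPB41L4A-AS1, a long non-coding RNA, stood at 27.7 and 33.2 CPM against 70.5 and 60.5 CPM, and was higher in 10 of 10 clusters. PLEKHB1 and NOC4L, a gene of ribosome assembly, rose by 1.05 and 0.91 on the log2 scale. Both OA control libraries were higher in 4 of 10 clusters for EEF1A2, TUBA4A and PLEKHB1, and in 7 for NOC4L. TUBA4A and PLEKHB1 were each lower in both OA control libraries in 1 cluster. TBRG4 did not pass, at 11.1 and 13.7 CPM against 23.4 and 22.4 CPM (edgeR adjusted p = 0.051).

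Histone genes went both ways. HIST1H1E, a linker histone gene on chromosome 6 at 26156329 to 26157115, stood at 350 and 233 CPM in untreated and at 40.7 and 40.6 CPM in OA control. It fell by 2.84 ± 0.48 (SE) on the log2 scale, a 7.18-fold lower level (edgeR adjusted p = 0.035). The gap held in 10 of 10 clusters: in cluster 12, which led with cell cycle genes, HIST1H1E stood at 1231 and 764 CPM against 93.6 and 127 CPM. HIST1H4C, a core histone gene on the same chromosome at 26103933 to 26104337, stood at 492 and 655 CPM in untreated and at 1375 and 1189 CPM in OA control (log2 change 1.16 ± 0.24 SE, edgeR adjusted p = 0.049). It was higher in both OA control libraries in 9 of 10 clusters. Of 53 clustered histone genes tested, a group chosen after values were seen, 1 rose and 2 fell, HIST1H2AK being the other, where 0.0826% of all genes rose and 0.491% fell. Their median log2 fold change was -0.44. Of the 53, 21 were lower and 5 higher in both OA control libraries, against 21.4% and 24.6% of all genes. As background, most messengers of clustered histone genes end in a stem-loop and not in a poly(A) tail, and histone genes have near-identical copies.

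MT-ND4L was the only mitochondrially encoded gene of 13 tested that passed, where 0.573% of all genes did. It encodes a subunit of respiratory complex I and stood at 725 and 873 CPM in untreated and at 348 and 301 CPM in OA control (log2 change -1.30 ± 0.24 SE, edgeR adjusted p = 0.040). The gene overlaps MT-ND4 on the same strand, and reads in the overlap cannot be told apart. MT-ND4 itself stood at 2694 and 5613 CPM in untreated and at 4939 and 4427 CPM in OA control, so its groups overlapped. MT-ND4L was lower in both OA control libraries in 10 of 10 clusters. It was not alone in this: MT-ATP8, which did not pass, was also lower in 10 of 10. MT-ND3 was higher in 9 of 10. For MT-CO2, MT-CO3, MT-CYB and MT-ND2 the groups overlapped in 10 of 10.

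**Figure D2:**
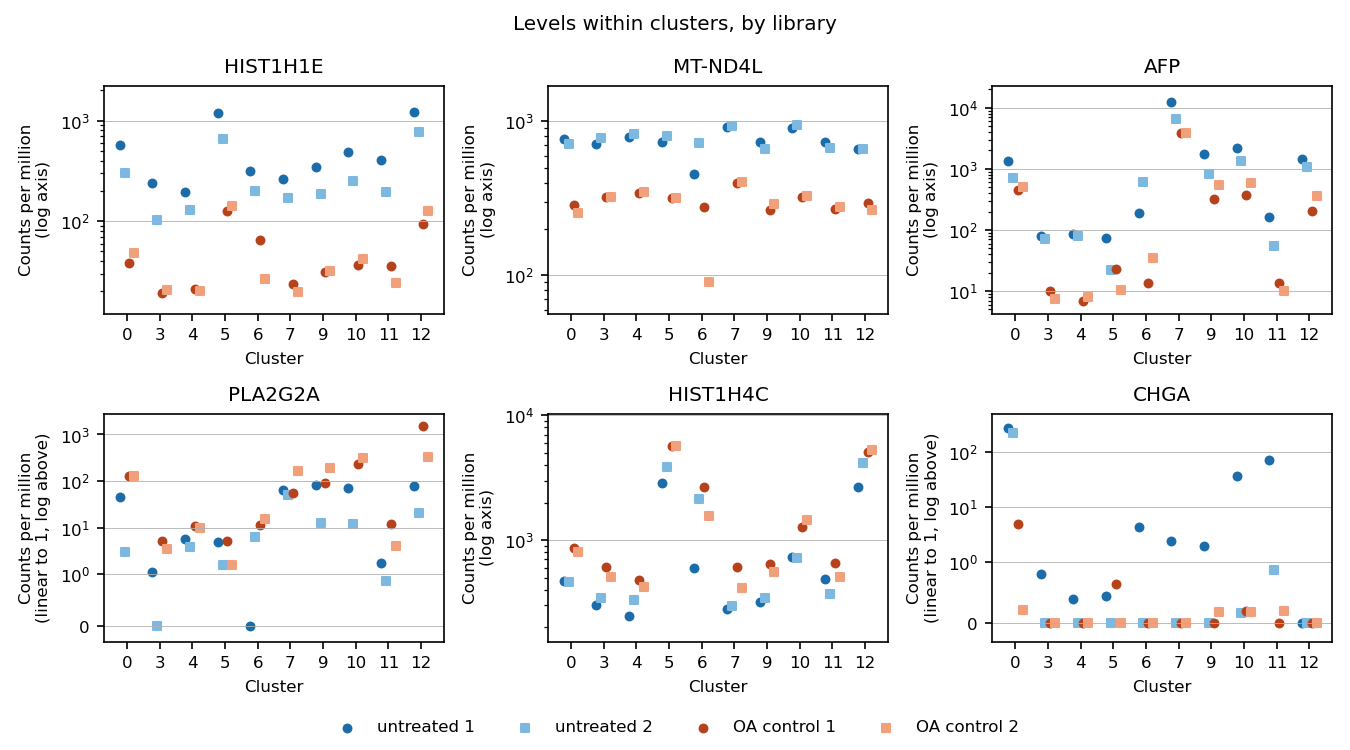
CPM (vertical axis) of 6 genes in the 10 clusters with at least 50 cells in each library, each point 1 library. HIST1H1E and MT-ND4L are lower in both OA control libraries in every one of these clusters, HIST1H4C is higher in 9 of 10, and CHGA lies mostly in cluster 0.

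HIST1H1E, MT-ND4L and AFP were also low in the TGFB1 and PA groups and their controls, but not in the OA group. HIST1H1E lay between 11.0 and 67.6 CPM in the 8 libraries of the TGFB1, TGFB1 control, PA and PA control groups, next to 40.7 and 40.6 CPM in the OA control. It stood at 256 and 307 CPM in the 2 libraries with OA. MT-ND4L lay between 360 and 548 CPM in those 8 libraries and at 1480 and 1206 CPM with OA. AFP lay between 73.9 and 800 CPM in the 8 libraries and at 7936 and 5960 CPM with OA. CHGA differed from this order: it stood at 910 and 435 CPM in the PA control libraries, at 903 and 606 CPM with PA and at 3.03 and 18.9 CPM with OA. File headers give another software release for the 8 libraries than for the untreated, OA control and OA libraries, and its part was not tested. The OA group shares the OA control, so its values are set side by side without a test.

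The genes that fell had longer transcripts than those that rose, and the change over all genes went with transcript length. The median canonical transcript of the 95 genes that fell was 5246 bases, that of the 16 genes that rose 1797.5 bases, and that of all genes tested 2794 bases. The pattern was noticed after the values were seen and is given without a test, since genes are not replicates. Genes with a mean of at least 10 CPM were divided into 5 equal classes by length. Their median log2 fold changes were 0.34 in the shortest class, then 0.15, -0.03 and -0.17, and -0.26 in the longest class. Each OA control library over each untreated library gave a median log2 ratio of 0.28 to 0.43 in the shortest class and of -0.29 to -0.21 in the longest. Between replicates the medians were -0.12 (untreated 2 over 1) and -0.07 (OA control 2 over 1) in the shortest class, and 0.05 and 0.01 in the longest. Over all genes tested, 47 of the 95 genes that fell and none of the 16 that rose were in the longest class. The same order was present in clusters 3 and 4, which led with collagen genes, from 0.30 to -0.26, and in the other cells, from 0.26 to -0.24. Its part in the calls was not tested.

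**Figure D3:**
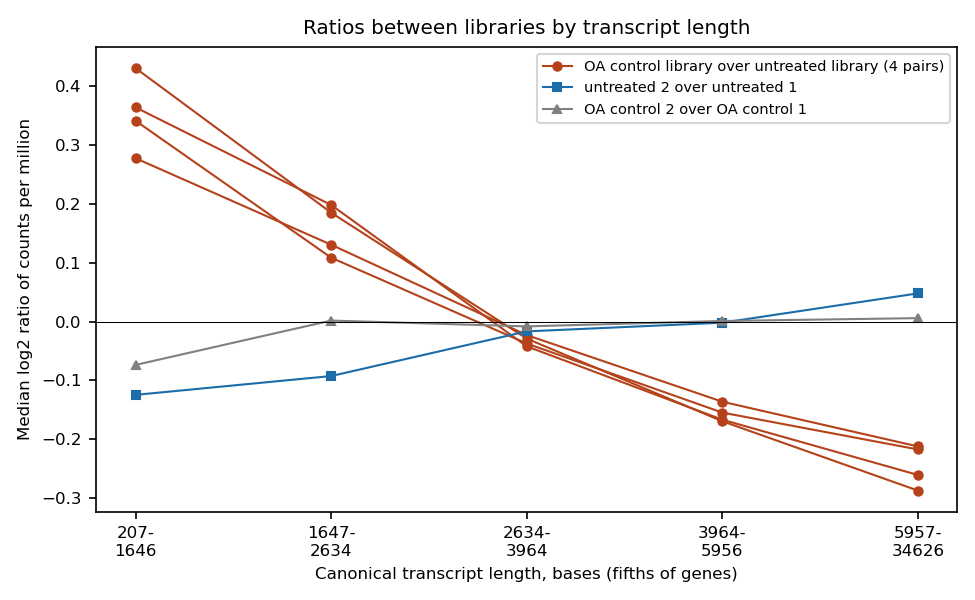
Median log2 ratio of CPM between libraries (vertical axis) in 5 classes of transcript length in bases (horizontal axis), for genes with a mean of at least 10 CPM. All 4 ratios of an OA control library over an untreated library go from above 0.27 to under -0.21, while ratios between replicates stay between -0.13 and 0.05.

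Ribosomal protein genes, which have short transcripts, were high in the OA control as a group but none passed, where 0.573% of all genes did. A count of 0 in a group of this size is near the background. They took 16% and 19.4% of UMIs in the untreated libraries, 22.9% and 21.3% in the OA control libraries, and 11.8% and 12.7% with OA. Of 83 ribosomal protein genes tested, 82 had a positive log2 fold change, with a median of 0.52. Over all 19366 genes tested, 10129 were positive. Of the 83, 56 were higher and 0 lower in both OA control libraries, against 24.6% and 21.4% of all genes. The group was chosen after values were seen. With library totals in place of TMM the median of all genes moved from 0.03 to -0.12, and that of the ribosomal protein genes to 0.37, with 78 of 83 positive.

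**Figure D4:**
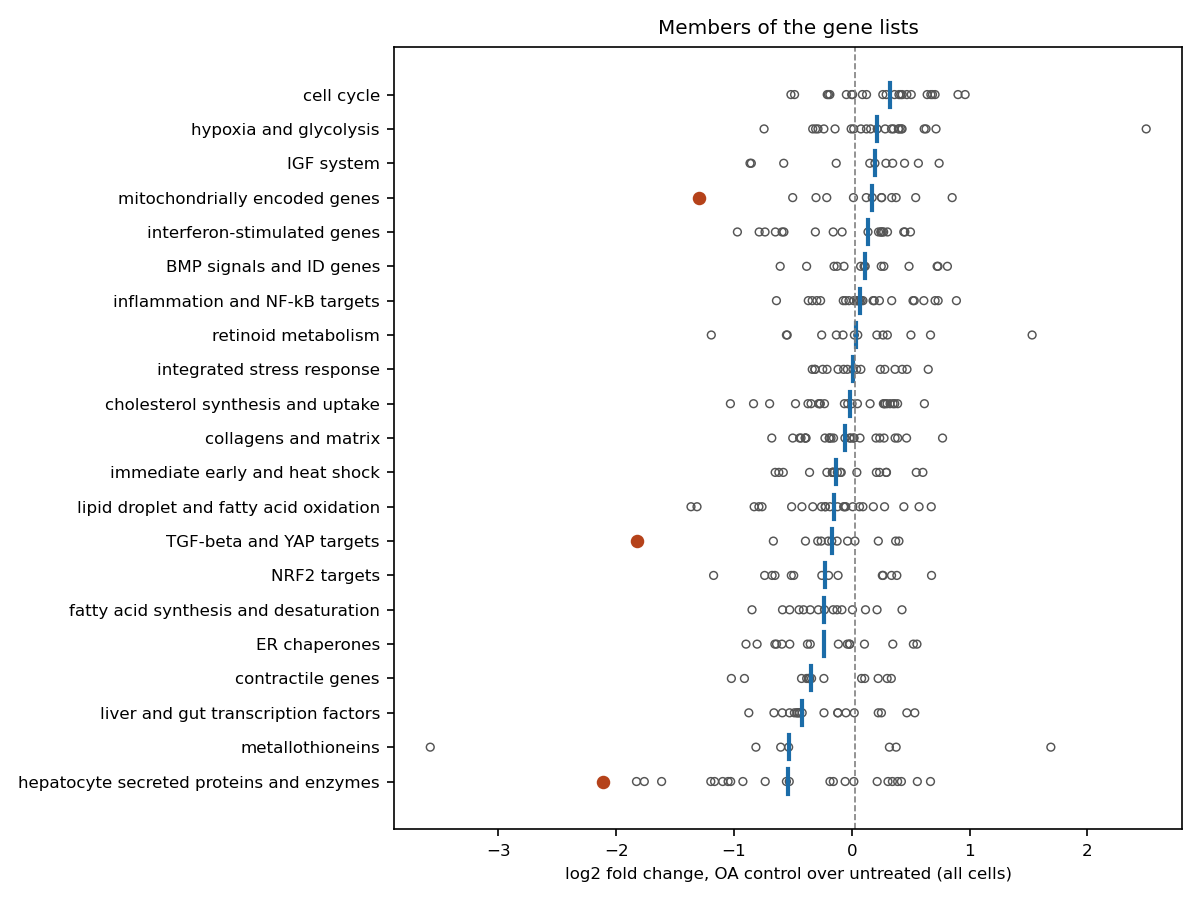
Log2 fold change of OA control over untreated (horizontal axis) for the members of 21 gene lists, with filled points for genes that passed the test, blue bars for list medians and a dashed line for the median of all genes tested, 0.03. Of all list members, AFP, ANKRD1 and MT-ND4L passed.

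Of the members of the 21 gene lists, AFP, ANKRD1 and MT-ND4L passed, and all 3 fell, where 0.573% of all genes passed. The list of hepatocyte secreted proteins and enzymes had 24 members tested, a median log2 fold change of -0.54, and 1 called member. Of the 24, 11 were lower and 1 was higher in both OA control libraries, against 21.4% and 24.6% of all genes. The member that was higher was SERPINA1, the alpha-1 antitrypsin gene, at 6065 and 6284 CPM against 10983 and 7172 CPM, named after its values were seen. Within clusters, SERPINA1 was higher in both OA control libraries in 1 of 10, lower in 1 and overlapping in 8. Liver and gut transcription factors had a median of -0.42 over 19 genes. ONECUT2, a hepatic lineage factor, stood at 107 and 217 CPM against 107 and 98.3 CPM, and SOX9, of bile duct progenitors, at 54.8 and 114 CPM against 91.2 and 71.8 CPM. Leaving out untreated replicate 2 turned the list's median to 0.17, so the median over all cells rests on this library. Within clusters, ONECUT2 was lower in both OA control libraries in 9 of 10 and SOX9 in 2 of 10. Each was higher in 0, and 24.9% of all genes in these clusters were lower.

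The lipid lists held no called gene. With 0.573% of all genes called, a count of 0 in a list of this size is near the background. Of 24 genes of lipid droplets and fatty acid oxidation, 0 passed, with a median log2 fold change of -0.15 and a range from -1.37 to 0.67. PLIN2, the coat protein of lipid droplets, stood at 154 and 187 CPM in untreated and at 190 and 174 CPM in OA control, with 1240 and 1121 CPM in the OA libraries. HADHA, of mitochondrial fatty acid oxidation, stood at 220 and 199 CPM against 165 and 148 CPM. Among 24 genes of cholesterol synthesis and uptake the median was -0.02, which became 0.41 without untreated replicate 2, and 0 passed. Its members went apart: CYP51A1 stood at 193 and 250 CPM against 129 and 119 CPM, and FDPS at 127 and 135 CPM against 175 and 168 CPM. Of 15 genes of fatty acid synthesis 0 passed, with SCD at 79.2 and 194 CPM against 108 and 92.0 CPM.

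The most abundant matrix and contractile genes differed widely between replicates, and none of these lists' genes passed, against 0.573% of all genes. COL1A1, the fibrillar collagen of stroma, stood at 1257 and 770 CPM in untreated and at 796 and 1257 CPM in OA control, and 0 of 25 matrix genes passed. TAGLN, of smooth muscle and myofibroblasts, stood at 554 and 124 CPM against 306 and 528 CPM, and 0 of 14 contractile genes passed. TIMP1, an inhibitor of matrix proteases, stood at 1571 and 722 CPM against 1937 and 1973 CPM. Contractile genes had a median of -0.35, which became 0.92 without untreated replicate 1.

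Stress and signalling lists held no called gene apart from ANKRD1 in the list of TGF-beta and YAP targets. With 0.573% of all genes called, a count of 0 in lists of this size is near the background. Of 16 chaperones of the endoplasmic reticulum, 8 were lower and 3 higher in both OA control libraries, against 21.4% and 24.6% of all genes. HSP90B1 stood at 1837 and 1424 CPM in untreated and at 1130 and 944 CPM in OA control, PDIA3 at 1157 and 941 CPM against 680 and 522 CPM, and HSPA5 at 1108 and 763 CPM against 665 and 575 CPM. These folding enzymes did not pass (edgeR adjusted p of 0.26, 0.23 and 0.33). CALR, of the same list, stood at 671 and 682 CPM against 702 and 635 CPM. FOS, an immediate early gene, stood at 1508 and 1368 CPM against 924 and 908 CPM, and JUN at 498 and 653 CPM against 486 and 595 CPM. ID1, a target of BMP signals, stood at 288 and 206 CPM against 404 and 464 CPM.

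Glycolysis and cell cycle lists had the highest medians, 0.22 over 23 genes and 0.33 over 24 genes. They held 0 called members, which is near the background in lists of this size, with 0.573% of all genes called. GAPDH, a glycolytic enzyme, stood at 1889 and 2225 CPM against 3033 and 2496 CPM, and PKM at 303 and 294 CPM against 389 and 401 CPM. Of the 24 cell cycle genes, 12 were higher and 5 lower in both OA control libraries, against 24.6% and 21.4% of all genes. CENPF, of mitosis, stood at 104 and 120 CPM against 114 and 110 CPM, so the most abundant member did not separate. Within clusters members went both ways. CENPF was lower in both OA control libraries in 6 of 10 clusters and higher in 0. MCM5, another member, was higher in 5 and lower in 1. These members were picked after values were seen. The cell cycle median was -0.44 in clusters 3 and 4 and 0.40 in the other cells, and the difference between these was not tested.

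**Figure D5:**
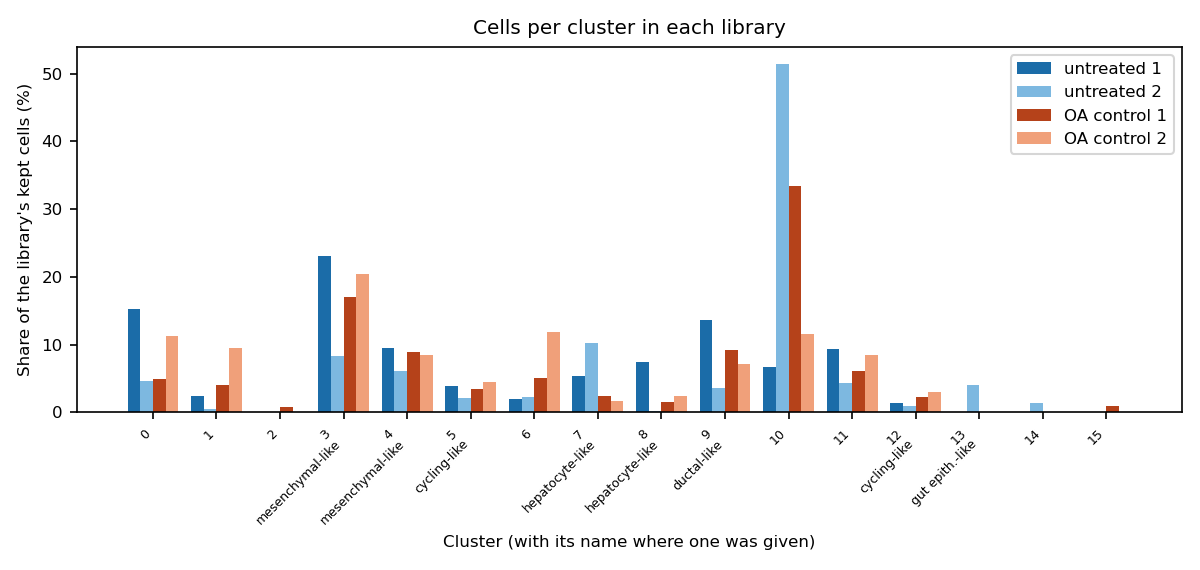
Share of each library's kept cells (vertical axis, percent) in 16 clusters, with 1 bar a library. Cluster 10 holds 6.70% and 51.4% of the untreated cells and 33.4% and 11.5% of the OA control cells, so in this cluster the replicates lie further apart than the groups.

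The 4 libraries were clustered together without integration, giving 16 clusters, of which 8 were named from markers. Clusters 3 and 4, led by COL1A2, COL3A1 and VIM or by COL3A1 and COL1A1, met the rule for a mesenchymal name. Ranked by fold, the top 10 genes of cluster 4 held 1 smooth muscle marker and no mesenchymal one, and those of cluster 3 held 1 mesenchymal and 1 endocrine marker. These clusters are therefore given by number and not as a cell type. Together they held 32.6% and 14.4% of the untreated cells and 25.9% and 28.9% of the OA control cells, so the groups overlapped. Clusters 7 and 8 were hepatocyte-like, led by genes such as SELENOP, TTR and AFP, and their leading genes included gut genes such as RBP2, APOA4 and MUC13. They held 12.8% and 10.6% of the untreated cells and 3.90% and 4.07% of the OA control cells (exact permutation p = 0.33, the smallest that 2 against 2 allows). Cluster 8 held most of these cells in untreated replicate 1 and in OA control replicate 2, and cluster 7 in the other libraries. AFP is both a marker of this class and a gene that fell. As a member of a gene list, it was not used to form clusters in any run. It could still count as a marker when clusters were named, also when the called genes were left out. That run therefore cannot settle the part of AFP in the name. Clustering without the called genes gave a hepatocyte-like share of 20.9% and 17.8% against 11.9% and 18.4%, with overlapping groups. That share includes a further cluster led by SPINK1 and SERPINA1, which took the name with 3 markers, the fewest that give one. Its other clusters, with more than 3 markers, held 11.1% and 13.7% against 4.77% and 4.23%, so they separated as before (chosen after values were seen).

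Cycling-like clusters 5 and 12 held 5.18% and 3.04% of the untreated cells and 5.76% and 7.46% of the OA control cells. Ductal-like cluster 9, led by KRT19 and KRT7, keratins of bile duct epithelium, held 13.6% and 3.60% against 9.27% and 7.08%. Cluster 10 was unnamed and led with AGR2, FABP1, MT-CO2, PRSS2, RPL39 and LYZ, a mix of epithelial, mitochondrial and ribosomal protein genes. Its 50 leading genes held 1 gut epithelial and 2 hepatocyte markers. Its share was 6.70% (95% Clopper-Pearson interval 6.20% to 7.22%) and 51.4% (50.1% to 52.7%) in untreated, and 33.4% (32.1% to 34.7%) and 11.5% (10.4% to 12.7%) in OA control. The intervals cover counting error only, and the replicates lay far outside each other's interval. At leiden resolution 1.0, a cluster led by MT-CO2, MT-CO1 and RPL39 had cells at 0.56 of their own library's median UMIs. That cluster held 2.34% and 41.1% of the untreated cells and 11.1% and 1.00% of the OA control cells. Cluster 13, gut-epithelial-like and led by KRT20, held 4.02% of untreated replicate 2, 0.011% of untreated replicate 1 and 0.032% of OA control replicate 2. It held 0 of 5456 cells of OA control replicate 1, which allows a share of up to 0.055%, the share that 3 cells would be. Cluster 6 was unnamed, with cells at 0.21 of their own library's median UMIs, and held 1.98%, 2.22%, 5.00% and 11.8% of cells in library order.

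In clusters 3 and 4 alone, AFP, RBP2, APOB and the linker histone genes HIST1H1E and HIST1H1B fell. Of 14456 genes tested with edgeR in the 4 libraries, 5 passed (0.0346%), all lower in the OA control, and 0 were higher (0.0%). An unadjusted p under 0.05 was reached by 2567 genes (17.8%), and the groups did not overlap for 50.2%, 24.6% higher and 25.6% lower in the OA control. AFP stood at 78.1 and 70.2 CPM in untreated and at 9.57 and 7.77 CPM in OA control (log2 change -3.11 ± 0.22 SE, edgeR adjusted p = 0.0006). RBP2, a retinol-binding protein of the gut, stood at 17.2 and 23.9 CPM against 0.88 and 0.95 CPM, and APOB, of lipoproteins, at 5.91 and 8.26 CPM against 0 and 0.24 CPM. HIST1H1E stood at 213 and 110 CPM against 21.9 and 20.9 CPM, and HIST1H1B, another linker histone gene, at 39.6 and 35.7 CPM against 8.44 and 5.32 CPM. APOB and HIST1H1B are outside the rule for named genes here and were chosen after their values were seen.

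AFP in hepatocyte-like cells stood at 7155 and 6371 CPM in untreated and at 2602 and 2892 CPM in OA control. Its level in clusters 3 and 4 was 1.14% and 1.17% of that in untreated, and 0.34% and 0.26% in OA control, with plain totals for both. RBP2 in hepatocyte-like cells stood at 1123 and 2509 CPM against 1284 and 1071 CPM, so its groups overlapped there. Droplet data hold free RNA, and its part in these low levels was not tested.

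AREG, CXCL6 and SCX, an epidermal growth factor receptor ligand, a chemokine and a tendon factor, were higher in both OA control libraries in clusters 3 and 4 and did not pass. AREG stood at 43.4 and 47.2 CPM against 88.5 and 94.2 CPM (edgeR adjusted p = 0.13). COL1A1 in these cells stood at 3788 and 4581 CPM against 3756 and 4165 CPM. Without 1 library the count of genes passing moved to 2092 (without untreated replicate 1), 3260 (without untreated replicate 2), 31 (without OA control replicate 1) and 16 (without OA control replicate 2). It was 64 with DESeq2. With clusters named by genes ranked by fold the mesenchymal name went to cluster 6 instead, where 0 of 4161 genes passed in 953 shallow cells, so that 0 is not of clusters 3 and 4.

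Among cells of the remaining clusters, 0 of 17691 genes passed edgeR (0.0%), while 2677 (15.1%) had an unadjusted p under 0.05 and DESeq2 called 389. Without untreated replicate 2, 861 passed, and 111, 0 and 1 passed without untreated replicate 1, OA control replicate 1 and OA control replicate 2. REG3A, an antibacterial lectin of the gut, stood at 5.26 and 6.10 CPM in untreated and at 19.3 and 22.8 CPM in OA control. TESC stood at 68.7 and 51 CPM against 180 and 156 CPM. GSTA1, a glutathione transferase of liver and gut, stood at 141 and 142 CPM against 47.5 and 39.5 CPM, and HIST1H1B at 167 and 168 CPM against 50.3 and 42.8 CPM. These 4 genes had an edgeR adjusted p of 0.25 each, and groups that did not overlap, as for 48.4% of all genes in these cells (24.9% higher and 23.5% lower).

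Within the hepatocyte-like cells, described without a test, 9 of 24 hepatocyte genes were lower, 5 higher and 10 overlapping. Over all genes 22.6% were lower and 14.5% higher in both OA control libraries in these cells. The median log2 ratio of group means was -0.28 for the list and -0.071 for all genes. Those lower were AFP, TTR, FGG, CPS1, APOE, RBP4, APOH, HPX and TF. HPX and TF lay near the floor, with 18 and 15 UMIs and 4 and 6 UMIs in untreated and 0 in both OA control libraries. FGG, a fibrinogen chain, stood at 141 and 172 CPM in untreated and at 46.6 and 70.2 CPM in OA control. Those higher were FABP1, VTN, SERPINA1, APOA2 and AMBP. FABP1, a fatty acid binding protein of liver and gut, stood at 895 and 2848 CPM in untreated and at 4561 and 4149 CPM in OA control. VTN, the plasma protein vitronectin, stood at 510 and 565 CPM against 801 and 812 CPM. Apart from AFP, the genes of this paragraph are named here after their values were seen. TTR, the thyroid hormone carrier transthyretin, stood at 3109 and 3438 CPM in untreated and at 2626 and 3015 CPM in OA control. ALB stood at 124 and 48 CPM against 255 and 63.7 CPM, and APOA1 at 2023 and 1680 CPM against 1407 and 1930 CPM. AFP and TTR were lower in both OA control libraries, and the groups overlapped for ALB and APOA1.

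Each cell with at least 1500 UMIs was also thinned to that number, which gives all cells of the 4 libraries the same depth. The shares of cells left out as too shallow differed, with 967 and 1888 cells in untreated and 802 and 296 in OA control. After thinning 0 of 13897 genes passed edgeR, with 2129 at an unadjusted p under 0.05. Log2 changes stayed close for PLA2G2A (3.40), OLFM4 (1.86), TESC (1.40), HIST1H4C (1.06), AFP (-2.12), HIST1H1E (-2.79) and MT-ND4L (-1.30), and that of CHGA was -8.19. All 103 of the 111 genes called above that could be tested kept their direction. These genes were called on the same UMIs, and thinning keeps the expected make-up of each cell, so this is no separate support. The fit on thinned counts also used 4 libraries alone.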

How the data were processed

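The deposited matrices give UMI counts, not normalized, for each gene in each barcode; per the file headers they were made with Cell Ranger 6.0.2 for the untreated, OA control and OA libraries and 3.0.2 for the others. The submitters' processing notes name Cell Ranger 3.0.2, bcl2fastq, Scanpy and GRCh38. Cells with under 500 genes or over 20% mitochondrial counts were dropped, and counts were summed per library. The 32732 gene identifiers shared by the 14 shaker matrices were tested with edgeR 4.0.16 (TMM, quasi-likelihood). Clusters used scanpy 1.11.5 (2000 variable genes, 30 components, 15 neighbours, leiden 0.5). Mitochondrial, ribosomal protein and gene list genes were left out of the variable genes. Doublets were kept. A cluster was named from 3 or more markers among its 50 leading genes. Leading genes were ranked by Wilcoxon score, a choice made after clusters ranked by fold had been seen. Named genes were the 10 with the largest called change per direction at 10 CPM or more (1 place among those higher went to an uncalled gene by smallest p), list members called or most abundant, and 3 per direction in each cell class. Members and lists were chosen with earlier results of these data known. Alternatives are given below. The fitting script was tested on simulated data. Some results are not reported here.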

Additional observations from a re-analysis of the deposited data

How the results depend on the processing

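The 111 genes called in all cells became 0 with the 4 libraries alone, 0 with the untreated, OA control and OA libraries, 702 with DESeq2, 255 with library totals, 523 without a filter on low counts and 0 with cells thinned to 1 depth. Leaving out 1 library gave 0 to 164. All of the 111 that an alternative tested kept their direction, but they were called on these same libraries, so this is no separate support. The 5 genes of clusters 3 and 4 became 64 with DESeq2, 328 without the filter, 0 with clusters named by fold (then cluster 6 alone), and 16 to 3260 without 1 library. Leiden resolution 1.0 gave 6, of which 1 was higher. These fits use the 4 libraries alone, so without 1 library an arm is a single library that takes its spread from the other arm, and passing there is no sign of stability. The 0 of the other cells became 389 with DESeq2, 12 without the filter, and 0 to 861 without 1 library. Of 339 values of the 20 named genes under all alternatives, 186 kept direction and call, 149 lost the call, 4 gained it and 0 changed sign. The cause was not tested.

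With the replicate number as a replicate block, 7, 74 and 1 genes passed in all cells, clusters 3 and 4 and the other cells, and the median of liver and gut transcription factors was -0.25. The labels give these libraries a number only, and same-numbered libraries deviated with r = -0.56. A crossed pairing, added after seeing the data, gave 218, 853 and 2092 genes and a median of -0.26.

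List medians moved beyond the spread between replicates as follows. With library totals they were 0.18 (cell cycle), -0.022 (interferon), -0.14 (integrated stress response), -0.70 (metallothioneins) and -0.37 (NRF2 targets). Thinning gave 0.17 (cell cycle), 0.23 (integrated stress response), -0.078 (metallothioneins) and -0.65 (NRF2 targets). Metallothioneins were at 0.31 with 4 libraries, -0.14 with 6, -0.10 without the filter and -0.38 with stricter cells. NRF2 targets were at -0.34 with stricter cells and -0.38 without doublets. Without 1 library the medians ran from -0.48 to 0.17 (liver and gut transcription factors), -0.29 to 0.41 (cholesterol synthesis and uptake), -0.43 to 0.069 (fatty acid synthesis and desaturation), -0.82 to 0.92 (contractile genes), -0.037 to 0.61 (BMP signals and ID genes), 0.19 to 0.42 (cell cycle), -0.21 to 0.16 (interferon-stimulated genes), 0.062 to 0.14 (integrated stress response), -0.27 to 0.13 (immediate early and heat shock), -0.33 to 0.51 (metallothioneins), -0.41 to -0.079 (NRF2 targets), -0.22 to 0.68 (IGF system) and -0.14 to 0.73 (mitochondrially encoded genes). The share of hepatocyte-like cells, OA control minus untreated, was -7.71 percentage points and became -4.24 when clustered without the called genes and -23.02 at leiden resolution 1.0. Each time 1 more cluster reached the 3 markers for the name. With 4 markers required, added after seeing the data, the values were -7.90 and -7.36. Cluster limits also moved with the linear algebra kernel in use, which splits and numbers them differently, and under another kernel MMP3 also passed, as higher, in the collagen-led clusters.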
